A study of Mus musculus with 12 samples.

Results

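The genes of the glomerular basement membrane described here are 5 chains of collagen IV (Col4a1, Col4a2, Col4a3, Col4a4 and Col4a5), 4 laminin chains (Lama5, Lamb1, Lamb2 and Lamc1) and nidogen 1 (Nid1). Each was read from a probe set whose annotation gave exactly that gene symbol and no other. Where a gene had several, the probe set with the highest mean log2 signal over all arrays was used and the others served as a check. These are 10 of the 18201 genes that the array named in this way, and all 10 passed the filter on low signal that left 11921 genes for testing.

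The study measured RNA of isolated glomeruli, the filtering units of the kidney, in 12 female mice aged 8 to 10 weeks, with 1 Affymetrix array per mouse. Control mice and mice with anti-GBM GN were compared in each of 2 strains, C57BL6J and 129S2SvPAs, as 4 groups of 3 mice from Charles River. Anti-GBM GN is a glomerulonephritis induced with nephrotoxic serum, which was given on days 0, 1 and 2, and glomeruli were collected on day 4 through sieves of 100 and 45 µm. Both strains are inbred, and the labels name no altered allele. The treatment tag and title call the controls control, while their free-text description repeats the wording of the challenged mice. Whether controls received a control serum is not given in the sources used here.

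Collagen IV forms triple helices of defined chain composition. The alpha 1 and alpha 2 chains assemble together and are found in most basement membranes, in the glomerulus in the mesangial matrix and beneath the endothelium, and they precede the mature network during development. The alpha 3, alpha 4 and alpha 5 chains form the network of the mature glomerular basement membrane, are made by podocytes, and are mutated in Alport syndrome, while the alpha 3 chain carries the Goodpasture antigen. The main laminin of that membrane is the trimer of alpha 5, beta 2 and gamma 1 chains, beta 1 is its immature and mesangial counterpart of beta 2, and nidogen 1 links laminin to collagen IV.

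The collagen IV genes lie in head-to-head pairs. In the RefSeq gene table of GRCm38.p6, Col4a1 neighboured Col4a2 on chromosome 8, Col4a4 neighboured Col4a3 on chromosome 1, and Col4a6 neighboured Col4a5 on chromosome X. RefSeq promoter windows of 300 bases, from 250 before to 50 after a start site, matched 8 of the 10 genes, all but Col4a3 and Lamc1. The windows of Col4a1 and Col4a2 are shown because these neighbours had the closest profiles of any pair of the 10 genes, and that of Col4a4 as a chain of the mature network. They lie at chr8:11312777-11313076 (minus strand), chr8:11312555-11312854 (plus strand) and chr1:82586800-82587099 (minus strand). Each is written 5′ to 3′ on its own gene's strand, and capitals mark CCAAT and GGGCGG on either strand, so ATTGG and CCGCCC are the same letters read from the other strand.
Col4a1: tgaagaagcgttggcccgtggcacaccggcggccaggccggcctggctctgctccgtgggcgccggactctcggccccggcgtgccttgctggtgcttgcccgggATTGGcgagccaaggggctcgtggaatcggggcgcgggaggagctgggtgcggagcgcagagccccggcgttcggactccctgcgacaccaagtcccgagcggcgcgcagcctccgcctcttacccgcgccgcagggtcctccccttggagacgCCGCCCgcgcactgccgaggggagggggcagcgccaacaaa
Col4a2: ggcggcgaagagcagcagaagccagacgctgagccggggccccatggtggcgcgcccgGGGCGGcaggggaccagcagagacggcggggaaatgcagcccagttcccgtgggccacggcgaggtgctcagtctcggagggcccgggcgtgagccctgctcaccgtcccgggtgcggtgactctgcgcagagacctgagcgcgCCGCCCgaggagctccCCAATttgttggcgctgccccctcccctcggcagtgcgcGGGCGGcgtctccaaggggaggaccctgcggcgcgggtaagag
Col4a4: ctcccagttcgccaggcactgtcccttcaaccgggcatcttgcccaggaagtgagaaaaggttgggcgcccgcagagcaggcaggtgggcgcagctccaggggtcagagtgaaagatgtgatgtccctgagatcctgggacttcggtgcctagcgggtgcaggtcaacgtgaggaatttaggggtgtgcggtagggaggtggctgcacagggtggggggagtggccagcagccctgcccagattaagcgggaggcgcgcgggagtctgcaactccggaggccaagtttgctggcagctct
The start sites of Col4a1 and Col4a2 lie 21 bases apart, and their windows share 78 bases read from opposite strands. The Col4a1 window held 1 CCAAT and 1 GGGCGG, and the Col4a2 window 1 CCAAT and 3 GGGCGG. The GGGCGG of the Col4a1 window and the last of the Col4a2 window are the same 6 bases (chr8:11312812-11312817), which lie in the shared stretch and are counted in both windows. Within a window no matches overlapped. Neither held TATAAA, the other motif searched, and the Col4a4 window held none of the 3. Over all 32851 windows of this length, 37.41% held CCAAT, 35.66% GGGCGG and 13.62% TATAAA, so each is common. G and C made up 74% of the Col4a1 window, 73.7% of the Col4a2 window and 63.3% of the Col4a4 window, against a median of 52.7%. These matches are descriptions of sequence.

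Values are log2 signals of probe sets as deposited, and with 3 arrays per group their number limits the precision. Differences are log2 differences from limma, with a standard error (SE) or 95% interval, and a gene was called at a Benjamini-Hochberg adjusted p under 0.05 over all 11921 genes. Arrays of a group correlated across genes at r = 0.983 to 0.992, except in 129S2SvPAs anti-GBM GN, where replicate 1 stood apart (0.974 and 0.973 to the other arrays, against 0.994 between those). Markers of the labelled tissue were present: in C57BL6J controls, mean log2 signals were 11.84 for Podxl (podocytes), 12.17 for Emcn (endothelium) and 7.93 for Pdgfrb (mesangium). Other podocyte markers gave 10.17 (Synpo), 7.70 (Nphs1) and 7.22 (Wt1) there. In 129S2SvPAs controls, Podxl, Synpo, Nphs1 and Wt1 gave 10.56, 8.70, 6.08 and 5.30. RNA of proximal tubule was present as well in C57BL6J controls (Slc34a1 12.55, Lrp2 12.08). In RNA from whole glomeruli, fewer cells of a type and less RNA per cell cannot be told apart.

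On the probe sets used, the alpha 1 and alpha 2 chains of collagen IV and the laminin gamma 1 chain rose after nephrotoxic serum in both strains. Each rose over 4-fold in C57BL6J and over 6-fold in 129S2SvPAs. The second Col4a1 probe set rose less (log2 differences of 1.63 and 2.00). The other, dim Lamc1 probe set gave 0.87 in C57BL6J and 0.15 in 129S2SvPAs, where it did not pass (limma adjusted p = 0.670). The alpha 3, alpha 4 and alpha 5 chains passed the test in neither strain. Laminin alpha 5 was called in C57BL6J and nidogen 1 in 129S2SvPAs. Both were called in the average over the strains, and neither had a called difference of responses. The other tested nidogen 1 probe set was called in C57BL6J (1.20) and not in 129S2SvPAs (0.48), and the second laminin alpha 5 probe set in neither strain. Laminin beta 1 did not pass the test in any comparison. In C57BL6J, 4 of 10 genes were called higher, against 4.78% of all genes tested. In 129S2SvPAs, 4 of 10 were called higher, against 10.6%. Averaged over the strains, 7 of 10 were called higher, against 13% of all genes, and none was called lower in these 3 comparisons. The median difference of the 10 genes was 1.09 in C57BL6J and 0.64 in 129S2SvPAs, against -0.03 and 0.00 over all genes tested. All 3 challenged arrays exceeded all 3 control arrays for 8 of 10 genes in C57BL6J, against 13.2% of all genes, and for 6 of 10 in 129S2SvPAs, against 16.4%. The responses of the strains and the strain differences share arrays, so they are given side by side and not set against each other as independent results.

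**Figure D1:**
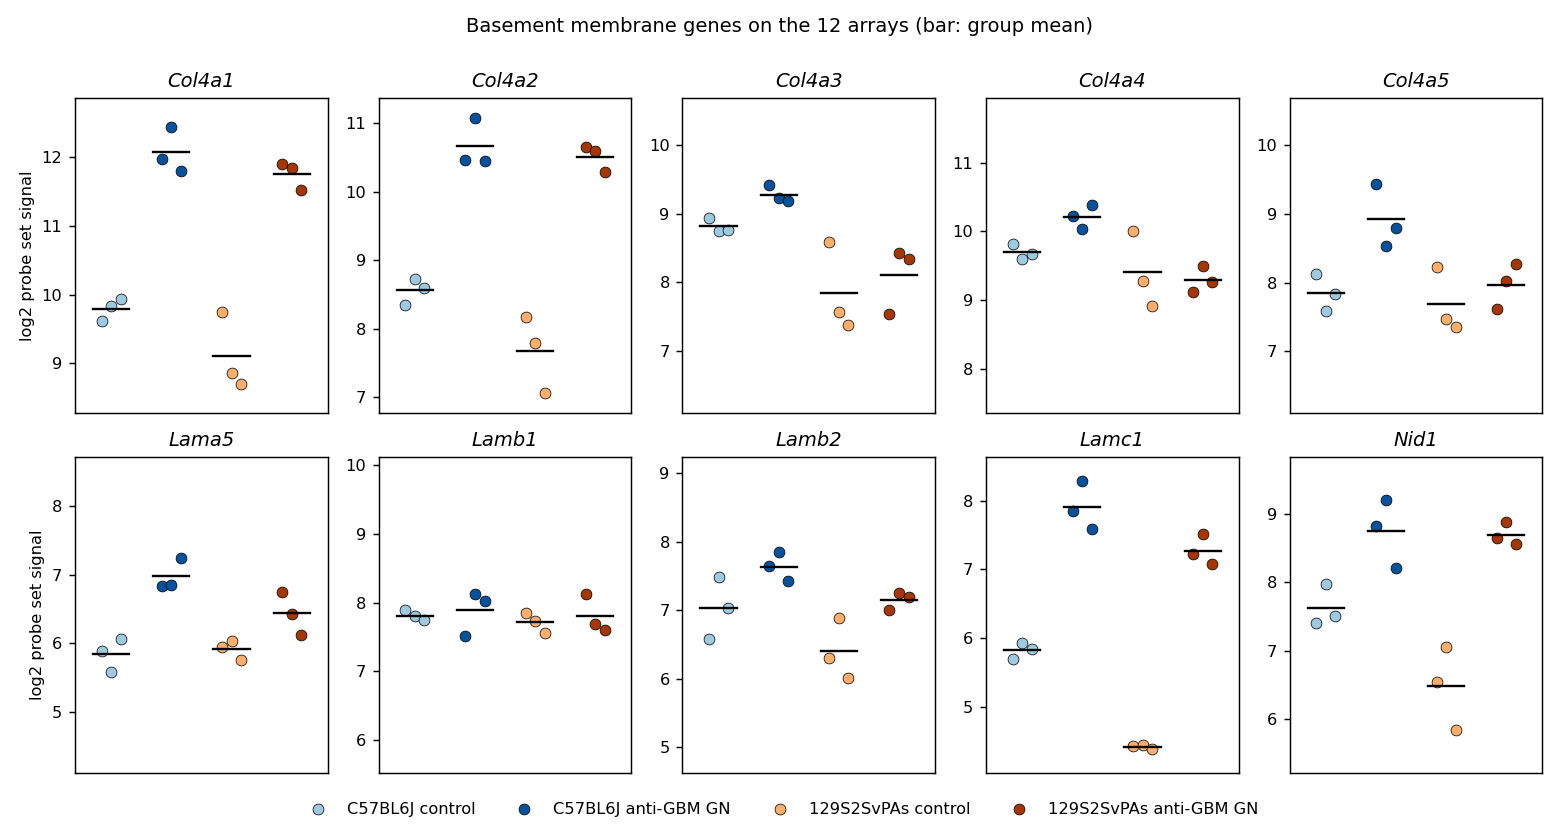
Log2 probe set signal of each of the 10 genes (vertical axis, one panel per gene, all panels spanning the same number of log2 units) on the 12 arrays, by group; points are arrays and bars are group means of 3. In the panels of Col4a1, Col4a2 and Lamc1 the challenged arrays of both strains stand clear of the controls, while in the Lamb1 panel the groups overlap.

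Col4a1 encodes the collagen IV alpha 1 chain. Its log2 signal was 9.61, 9.83 and 9.93 on the C57BL6J control arrays and 11.98, 12.44 and 11.80 on the C57BL6J anti-GBM GN arrays. In 129S2SvPAs it was 9.74, 8.86 and 8.70 in controls and 11.90, 11.84 and 11.53 after serum. Every challenged array lay above every control array in each strain, and replicate 1 of the 129S2SvPAs controls sat with the C57BL6J controls. The difference was 2.28 in C57BL6J (SE 0.26; 4.87-fold; limma adjusted p = 0.000479) and 2.66 in 129S2SvPAs (SE 0.26; 6.31-fold; limma adjusted p = 7.89e-05).

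Col4a2, its partner chain from the paired gene shown above, followed the same pattern. Signals were 8.35, 8.73 and 8.60 in C57BL6J controls and 10.46, 11.08 and 10.45 after serum, and 8.17, 7.79 and 7.06 in 129S2SvPAs controls and 10.65, 10.60 and 10.28 after serum. Again the groups did not overlap within a strain, and the challenged arrays of the strains covered a common range. The difference was 2.10 in C57BL6J (SE 0.27; 4.30-fold; limma adjusted p = 0.00093) and 2.84 in 129S2SvPAs (SE 0.27; 7.14-fold; limma adjusted p = 6.84e-05). Centred on their means, Col4a1 and Col4a2 differed by a root mean square of 0.17 log2 units over the 12 arrays, the smallest value among the 10 genes.

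Col4a3 encodes the alpha 3 chain. Its signals were 8.94, 8.75 and 8.76 in C57BL6J controls and 9.41, 9.23 and 9.19 after serum, which did not overlap. In 129S2SvPAs they were 8.58, 7.56 and 7.37 in controls and 7.54, 8.42 and 8.34 after serum, which did overlap. The difference was 0.46 in C57BL6J (95% interval -0.21 to 1.13; limma adjusted p = 0.437) and 0.26 in 129S2SvPAs (-0.41 to 0.93; limma adjusted p = 0.608). Neither passed the test, and both intervals lie below the estimates for Col4a1 and Col4a2.

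Col4a4, for the alpha 4 chain, gave 9.81, 9.60 and 9.67 in C57BL6J controls and 10.23, 10.04 and 10.38 after serum, and 10.01, 9.28 and 8.92 in 129S2SvPAs controls and 9.12, 9.49 and 9.27 after serum. The C57BL6J groups stood apart by a small margin and the 129S2SvPAs groups overlapped. The difference was 0.52 in C57BL6J (95% interval 0.01 to 1.04; limma adjusted p = 0.226) and -0.11 in 129S2SvPAs (-0.62 to 0.40; limma adjusted p = 0.817). Col4a5, for the alpha 5 chain, gave 8.13, 7.59 and 7.84 in C57BL6J controls and 9.44, 8.54 and 8.80 after serum. In 129S2SvPAs it gave 8.23, 7.47 and 7.35 in controls and 7.61, 8.02 and 8.27 after serum, again with overlap in this strain alone. Its difference was 1.07 in C57BL6J (SE 0.29; 2.10-fold; limma adjusted p = 0.0511), just short of the threshold and past it under quantile normalization (adjusted p = 0.0461), a stricter filter (0.0366), the mean of all probe sets (0.0438) and array weights (0.0186), and without 129S2SvPAs control replicate 1 or 3 or 129S2SvPAs anti-GBM GN replicate 1 (adjusted p = 0.0329, 0.0483 and 0.0406), and 0.28 in 129S2SvPAs (SE 0.29; limma adjusted p = 0.556). Averaged over the strains, Col4a5 was called at 0.68 (SE 0.21; limma adjusted p = 0.0319). That average call was lost in 7 of 12 fits that each left out 1 array, with adjusted p up to 0.0738: those without C57BL6J control replicate 2 or 3, C57BL6J anti-GBM GN replicate 1, 129S2SvPAs control replicate 2 or 3, or 129S2SvPAs anti-GBM GN replicate 2 or 3. Without the filter on low signal its adjusted p was 0.0706. Without 129S2SvPAs control replicate 1, the averages of Col4a3 (0.55; limma adjusted p = 0.0323) and Col4a4 (0.36; 0.0426) were called too.

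**Figure D2:**
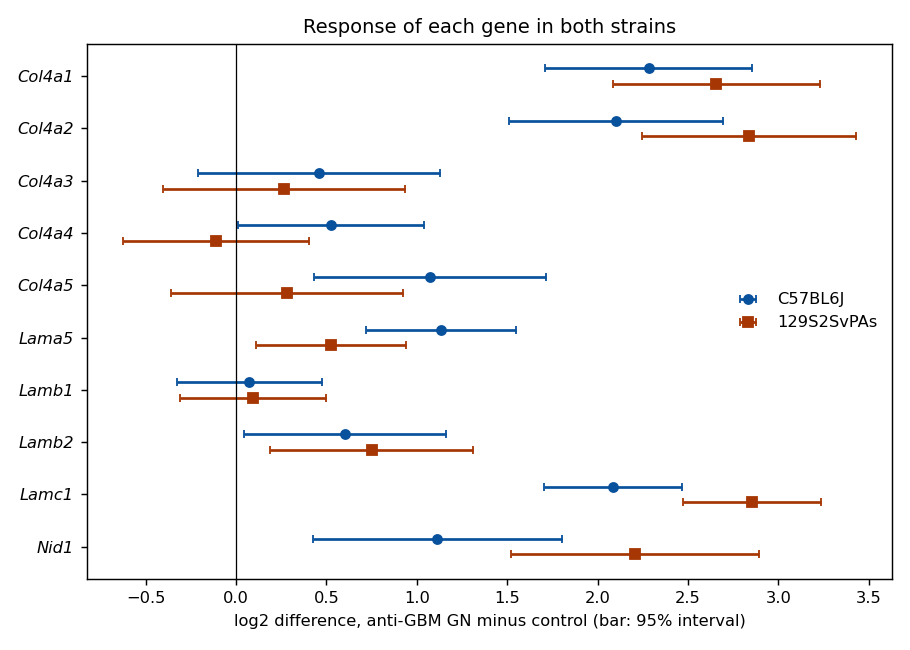
Difference between anti-GBM GN and control in each strain (horizontal axis, log2 units; circles C57BL6J, squares 129S2SvPAs) for the 10 genes, with 95% intervals from limma and a line at 0. Col4a1, Col4a2 and Lamc1 lie above 2 in both strains, and the intervals of Col4a3 and Lamb1 cross 0 in both.

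The 2 sets of chains were also set against each other on each array, as the mean of centred Col4a1 and Col4a2 signals minus that of Col4a3, Col4a4 and Col4a5. This is a description with no test. The value was -1.24, -0.63 and -0.75 on the C57BL6J control arrays and 0.27, 1.23 and 0.41 after serum. In 129S2SvPAs it was -1.25, -1.04 and -1.26 in controls and 1.92, 1.32 and 1.02 after serum. All 6 control arrays were below 0 and all 6 challenged arrays above 0. Relative to the alpha 3 to alpha 5 chains, the alpha 1 and alpha 2 chains thus gained 1.51 log2 units in C57BL6J (2.84-fold) and 2.60 in 129S2SvPAs (6.07-fold). Leaving out each array in turn moved these to between 1.21 and 1.69 and between 2.35 and 2.80. In C57BL6J the mean of the alpha 3 to alpha 5 chains went from 0.03 ± 0.16 (SD, n = 3) in controls to 0.72 ± 0.21 after serum, and in 129S2SvPAs from -0.45 ± 0.56 to -0.30 ± 0.31.

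**Figure D3:**
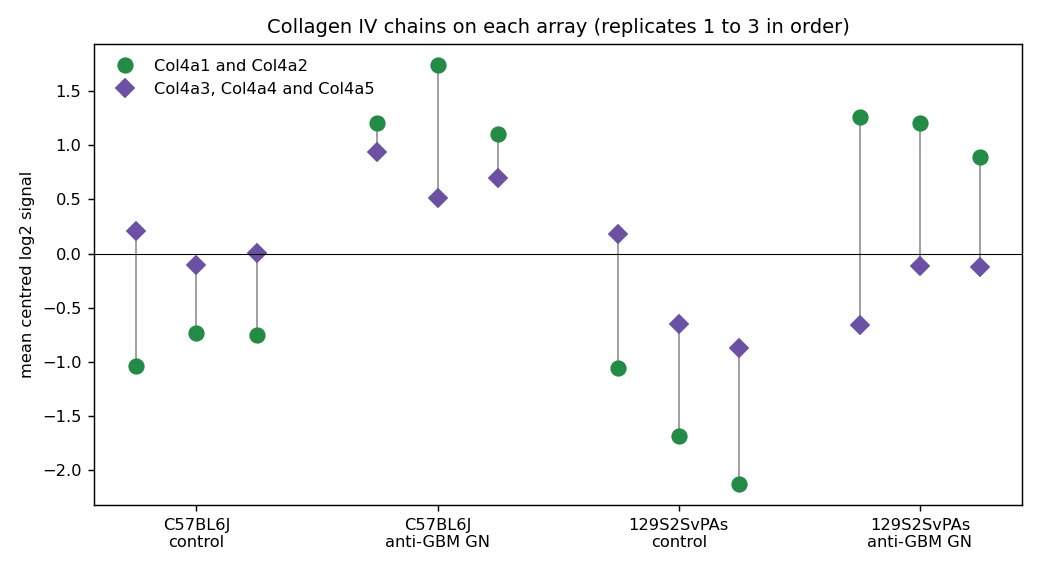
Mean centred log2 signal (vertical axis) of Col4a1 and Col4a2 (circles) and of Col4a3, Col4a4 and Col4a5 (diamonds) on each of the 12 arrays, with the 2 means of an array joined by a line and groups along the horizontal axis. The circles lie below the diamonds on all 6 control arrays and above them on all 6 challenged arrays. Each gene is centred on its mean over the 12 arrays, so this order does not compare amounts of the chains.

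Among the laminin chains, Lamc1, the gamma 1 chain common to most laminins, changed most. Its signals were 5.70, 5.93 and 5.84 in C57BL6J controls and 7.85, 8.29 and 7.59 after serum, and 4.43, 4.44 and 4.38 in 129S2SvPAs controls and 7.22, 7.51 and 7.08 after serum. The control arrays were close together within each strain, and those of 129S2SvPAs all lay below those of C57BL6J. The difference was 2.09 in C57BL6J (SE 0.17; 4.25-fold; limma adjusted p = 8.16e-05) and 2.85 in 129S2SvPAs (SE 0.17; 7.23-fold; limma adjusted p = 4.30e-06). Its averaged difference, 2.47 (SE 0.12), was equal to that of Col4a1 and Col4a2 at 2 decimals. Col4a2 and Lamc1 differed by a root mean square of 0.35 log2 units in their centred profiles.

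Lama5, the alpha 5 chain of the mature membrane, gave 5.88, 5.58 and 6.06 in C57BL6J controls and 6.83, 6.85 and 7.24 after serum, and 5.95, 6.03 and 5.75 in 129S2SvPAs controls and 6.75, 6.43 and 6.12 after serum. The challenged arrays lay above the controls in both strains, by a narrow margin in 129S2SvPAs. The difference was 1.13 in C57BL6J (SE 0.19; 2.19-fold; limma adjusted p = 0.00447) and 0.52 in 129S2SvPAs (SE 0.19; 1.44-fold; limma adjusted p = 0.0749). Without 129S2SvPAs anti-GBM GN replicate 3 the latter was 0.68 and passed (limma adjusted p = 0.0358).

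Lamb2, the beta 2 chain of the mature membrane, gave 6.58, 7.48 and 7.04 in C57BL6J controls and 7.64, 7.85 and 7.42 after serum, and 6.31, 6.89 and 6.01 in 129S2SvPAs controls and 7.01, 7.25 and 7.20 after serum. The groups overlapped in C57BL6J and stood apart in 129S2SvPAs. The difference was 0.60 in C57BL6J (SE 0.25; limma adjusted p = 0.198) and 0.75 in 129S2SvPAs (SE 0.25; limma adjusted p = 0.0607), and the average of 0.68 passed (SE 0.18; limma adjusted p = 0.0176). The 129S2SvPAs difference passed without C57BL6J control replicate 1 or 2 or 129S2SvPAs control replicate 2, with adjusted p from 0.0191 to 0.0446.

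Lamb1, the beta 1 chain, gave 7.89, 7.80 and 7.75 in C57BL6J controls and 7.51, 8.12 and 8.03 after serum, and 7.85, 7.73 and 7.56 in 129S2SvPAs controls and 8.13, 7.69 and 7.60 after serum. All groups overlapped. The averaged difference was 0.08 (95% interval -0.20 to 0.37; limma adjusted p = 0.694), an interval that leaves out changes of the size seen for Lama5 or Lamb2. Its sign turned under some settings, as given with the other dependence on processing.

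Nid1 gave 7.40, 7.97 and 7.51 in C57BL6J controls and 8.82, 9.19 and 8.21 after serum, and 6.55, 7.05 and 5.85 in 129S2SvPAs controls and 8.64, 8.88 and 8.55 after serum. The groups did not overlap in either strain, and the lowest signals were those of the 129S2SvPAs controls. The difference was 1.11 in C57BL6J (SE 0.31; 2.16-fold; limma adjusted p = 0.0578) and 2.21 in 129S2SvPAs (SE 0.31; 4.62-fold; limma adjusted p = 0.000695). The C57BL6J difference passed without C57BL6J anti-GBM GN replicate 3 (1.38; adjusted p = 0.0274) and without 129S2SvPAs control replicate 2 or 3 (adjusted p = 0.0390 and 0.0282). It also passed under quantile normalization (adjusted p = 0.0451), a stricter filter (0.0410), the mean of all probe sets (0.0184) and array weights (0.00965).

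Replicate numbers from the labels went with a shared deviation between C57BL6J control and challenged arrays, so the C57BL6J response was also fitted with the replicate number as a block on these 6 arrays. This fit was added after seeing the data. The labels do not say what a replicate number marks. The block was chosen from these same arrays, so the SEs and adjusted p of this fit can be too small. With the replicate block 8 of 10 genes were called, all but Lamb1 and Lamb2. The share of all genes called was not counted for this fit, so the 8 cannot be set against the 4.78% of the main fit. The added calls were Col4a3 (0.46, SE 0.09; limma adjusted p = 0.0450), Col4a4 (0.52, SE 0.11; 0.0497), Col4a5 (1.07, SE 0.12; 0.0131) and Nid1 (1.11, SE 0.17; 0.0252). With the replicate block on all 12 arrays, Col4a5 (adjusted p = 0.0461) and Nid1 (0.00825) were called in C57BL6J and Col4a3 (0.484) and Col4a4 (0.253) were not.

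The responses of the strains were compared directly as 129S2SvPAs minus C57BL6J. None of the 10 genes was called by limma, against 0.562% of all genes tested, and 3 had an unadjusted p under 0.05 (Lamc1, Nid1 and Lama5). The share of all genes with an unadjusted p under 0.05 was not counted. The difference of responses was 0.77 for Lamc1 (95% interval 0.23 to 1.31; limma adjusted p = 0.256), 1.09 for Nid1 (0.12 to 2.07; 0.396) and -0.61 for Lama5 (-1.20 to -0.02; 0.446). The other tested probe set of each of these genes gave the opposite sign (-0.72 for Lamc1, -0.72 for Nid1 and 0.037 for Lama5). Those of Lamc1 and Nid1 were dim. With the mean of all probe sets, 0 of 10 genes had an unadjusted p under 0.05 in limma. For the alpha 3 to alpha 5 chains the difference of responses was -0.20, -0.63 and -0.79, and for Col4a1 and Col4a2 0.37 and 0.73, with intervals that all included 0. A response called in one strain and not in the other is therefore not shown to differ between strains by this test.

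Between control mice, 2 of 10 genes were lower in 129S2SvPAs, against 5.11% of all genes tested called in that direction. Lamc1 was lower by 1.41 log2 units (SE 0.17; limma adjusted p = 0.000565) and kept its call in all 12 fits that left out 1 array. Nid1 had a difference of -1.14 (SE 0.31; limma adjusted p = 0.0471). Its call was lost in 9 of those 12 fits, all but those without C57BL6J anti-GBM GN replicate 2 or 3 or 129S2SvPAs control replicate 2, with adjusted p up to 0.186. Both calls rest on the probe set used, which leaving out arrays does not check. The other, dim probe sets gave -0.05 for Lamc1 (limma adjusted p = 0.920) and -0.15 for Nid1 (0.721) between controls. For 4 of 10 genes (Col4a2, Col4a3, Lamc1 and Nid1) all 129S2SvPAs control arrays lay below all C57BL6J control arrays, against 14.3% of all genes. Replicate 1 of the 129S2SvPAs controls carried the highest Col4a1, Col4a2, Col4a3, Col4a4 and Col4a5 signals of its group. Without it, Col4a1 (-1.01; adjusted p = 0.0167), Col4a2 (-1.14; 0.0330) and Col4a3 (-1.35; 0.00882) were called lower beside Lamc1, 4 in all, while Nid1 was not (-1.18; 0.104). Without 129S2SvPAs anti-GBM GN replicate 1, Col4a3 passed beside Lamc1 (adjusted p = 0.0400). The count was 1 without any of the 3 C57BL6J control arrays, C57BL6J anti-GBM GN replicate 1, 129S2SvPAs control replicate 3, or 129S2SvPAs anti-GBM GN replicate 2 or 3. With the replicate number as a block on only the control groups, a fit added after seeing the data, 2 of 10 genes were called. These were Lamc1 (limma adjusted p = 0.00944) and Nid1 (0.0445), while Col4a3 (0.0803) was not called. The share of all genes called was not counted for this fit.

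Between challenged mice, 3 of 10 genes were lower in 129S2SvPAs, against 4.89% of all genes, and all 3 calls were close to the threshold. Col4a3 had a difference of -1.18 (SE 0.30; limma adjusted p = 0.0369), Col4a4 of -0.92 (SE 0.23; 0.0336) and Lamc1 of -0.64 (SE 0.17; 0.0450), while Col4a5 had -0.96 (SE 0.29; 0.0719). Col4a1, Col4a2 and Nid1 differed by -0.32, -0.15 and -0.05 and their arrays overlapped. The 129S2SvPAs arrays lay below all C57BL6J arrays for 6 of 10 genes (Col4a3, Col4a4, Col4a5, Lama5, Lamb2 and Lamc1), against 12.6% of all genes. The calls did not withstand leaving out single arrays. No gene was called without C57BL6J control replicate 2 or 3, C57BL6J anti-GBM GN replicate 1 or 2, or 129S2SvPAs anti-GBM GN replicate 3 (4 or 5 had an unadjusted p under 0.05 in limma). One was called without C57BL6J control replicate 1 (Col4a4), C57BL6J anti-GBM GN replicate 3 (Lamc1) or 129S2SvPAs anti-GBM GN replicate 1, the array that stood apart (Lama5 at -0.70; adjusted p = 0.0432). Without 129S2SvPAs control replicate 1, Col4a5 (adjusted p = 0.0449) was called and Lamc1 (0.0632) was not. Without 129S2SvPAs anti-GBM GN replicate 1, Col4a3 was at -0.90 (adjusted p = 0.0894) and Col4a4 at -0.84 (0.0808). The adjusted p over all 12 such fits reached 0.123 for Col4a3, 0.10 for Col4a4 and 0.150 for Lamc1.

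The 10 genes had 23 probe sets, of which 10 were used and 10 of the other 13 could be tested. Among these 10, the second Col4a1 probe set (1426348_at) also rose, by 1.63 in C57BL6J and 2.00 in 129S2SvPAs (limma adjusted p = 0.00586 and 0.000740 over 23394 probe sets). A second Col4a4 probe set (1440250_at) differed between challenged strains by -0.87 (adjusted p = 0.0217), while another (1425772_at) gave -0.21 (0.493). The other Col4a3 probe set (1450224_at) gave -1.37 there with a wide error (SE 0.51; adjusted p = 0.162). The second Lama5 probe set (1427010_s_at) gave 0.97 and 1.003 in the strains and did not pass (adjusted p = 0.120 and 0.0522). The 2 other tested probe sets of Lamb1 lay between -0.13 and 0.09 in both responses.

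For Lamc1 and Nid1 the probe sets did not give the same result in 129S2SvPAs. The other Lamc1 probe set (1423886_at) was dim, with means of 2.75 and 3.63 in C57BL6J without and with serum and 2.71 and 2.86 in 129S2SvPAs, beside a median of 3.03 over all values. It gave 0.87 in C57BL6J (adjusted p = 0.0228) but 0.15 in 129S2SvPAs (0.670), -0.05 between controls (0.920) and -0.77 between challenged mice (0.0329). That median is also the filter threshold, and only the C57BL6J anti-GBM GN mean lay above it. The probe set passed the filter through that group, so its values under 0.05, which involve the same group, are not independent of the filter. The other Nid1 probe set (1448469_at) was dim as well, with means of 3.24 and 4.44 in C57BL6J and 3.09 and 3.58 in 129S2SvPAs. It gave 1.20 in C57BL6J (adjusted p = 0.00518), 0.48 in 129S2SvPAs (0.117), -0.15 between controls (0.721) and -0.86 between challenged mice (0.0216). Low signals can understate a difference, and whether they did so for these probe sets was not tested. Between challenged mice the Nid1 probe set used gave -0.05.

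**Figure D4:**
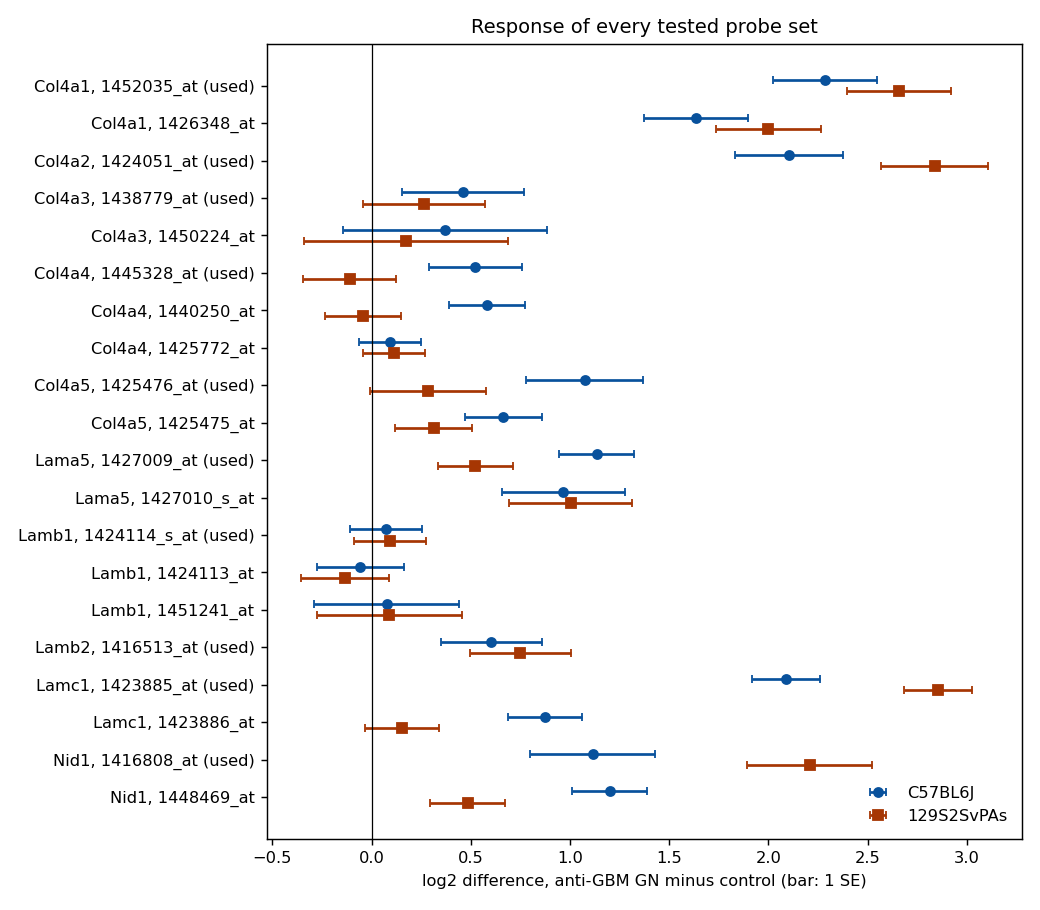
Difference between anti-GBM GN and control (horizontal axis, log2 units; bars 1 SE) for all 20 tested probe sets of the 10 genes, with the probe set used for each gene marked; circles are C57BL6J and squares 129S2SvPAs. The Col4a1 probe sets lie above 1.5 in both strains, whereas the Lamc1 and Nid1 probe sets differ from each other in 129S2SvPAs.

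Other components of basement membranes moved as well. Of 20 listed genes 12 were tested. Averaged over the strains 9 were called higher, against 13% of all genes tested, and 1 lower. The median difference was 1.10 against -0.01 over all genes. Tinagl1, a secreted matrix protein related to tubulointerstitial nephritis antigen, rose by 2.80 in C57BL6J (SE 0.33; limma adjusted p = 0.000625) and 2.98 in 129S2SvPAs (SE 0.33; limma adjusted p = 0.000170). Sparc, a collagen-binding glycoprotein, rose by 1.57 and 2.41, Col18a1, the collagen that yields endostatin, by 1.10 and 1.66, and Fbln2 (fibulin 2) by 1.20 and 2.62, all called in both strains. Perlecan (Hspg2) was called in 129S2SvPAs at 2.32 (SE 0.44; limma adjusted p = 0.00418), and agrin (Agrn), the main heparan sulphate proteoglycan of the glomerular membrane, gave 0.26 and 0.43, which passed in the average alone. Tinag fell in 129S2SvPAs by 0.82. Per strain the counts were 5 higher and none lower in C57BL6J, and 6 higher and 1 lower in 129S2SvPAs. Over all genes tested, 4.78% and 10.6% were called higher in these strains. Hspg2, Agrn and Tinag were named after their values were seen, as were Synpo, Nphs1, Emcn, Pdgfrb, Slc34a1, Lrp2, Csf1r, Ptprc and Adgre1 among the cell markers and Tcf21, Wt1 and Lmx1b among the regulators.

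**Figure D5:**
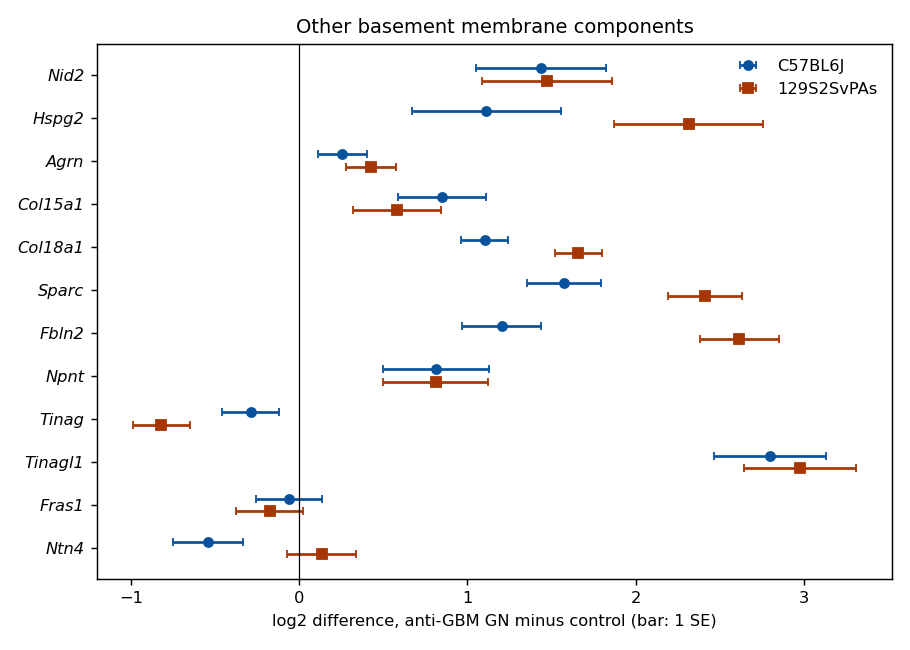
Difference between anti-GBM GN and control (horizontal axis, log2 units; bars 1 SE) for 12 other basement membrane components; circles are C57BL6J and squares 129S2SvPAs. Tinagl1 lies furthest to the right in both strains, and Tinag lies below 0.

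Of the other collagen IV and laminin chains, 4 of 8 were tested, with averaged limma adjusted p from 0.0653 (Lama4) to 0.890 (Col4a6) and no call in either strain. Col4a6, the neighbour of Col4a5, was dim in every group (means 3.27 to 3.32, beside a median of 3.03 over all values). A response cannot be read there. The differences in C57BL6J and 129S2SvPAs were -0.48 and -0.27 for Lama1, 0.28 and -1.22 for Lama3, and 0.58 and 0.99 for Lama4, an endothelial laminin chain. Of 17 tested genes for collagen folding, modification and cross-linking, 4 were called higher in C57BL6J, against 4.78% of all genes. In 129S2SvPAs 6 were higher, against 10.6%, and 2 were lower. Serpinh1, the collagen chaperone, rose by 1.55 and 1.24, the lysyl hydroxylase Plod2 by 1.16 and 1.04, and the collagen galactosyltransferase Colgalt1 by 0.52 and 0.73. P4ha2, a prolyl hydroxylase subunit, gave 0.54 in C57BL6J (limma adjusted p = 0.101) and rose by 1.54 in 129S2SvPAs (limma adjusted p = 0.000187). The list's median was 0.25 in C57BL6J and 0.52 in 129S2SvPAs.

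Receptors for these proteins were called higher in 5 of 11 cases in C57BL6J, against 4.78% of all genes, and 7 of 11 in 129S2SvPAs, against 10.6%. None was lower, and the medians were 0.39 and 0.50. The integrin alpha 3 subunit (Itga3), part of the main podocyte laminin receptor, rose by 1.29 and 1.44, its partner tetraspanin Cd151 by 0.55 and 1.01, dystroglycan (Dag1) by 0.73 and 0.45, and integrin-linked kinase (Ilk) by 0.39 and 0.50. Of 10 genes listed as regulators, 4 were called higher in each strain, against 4.78% of all genes in C57BL6J and 10.6% in 129S2SvPAs. None was called lower. The 4 were Tgfb1 (1.51 and 1.37), Tgfb2 (1.80 and 1.01), Tgfb3 (1.66 and 1.13) and Pdgfb (1.14 and 2.62). These are ligands of the TGF beta and PDGF pathways. The Tgfb3 probe set was dim, with means of 2.04 and 3.70 in C57BL6J without and with serum and 2.06 and 3.19 in 129S2SvPAs. The median over all values, also the filter threshold, was 3.03, so the size of its response is uncertain. Tgfb3 passed the filter through challenged arrays alone, so its calls are not independent of the filter. Tgfb1 was dim in controls as well, with means of 3.24 in C57BL6J and 2.74 in 129S2SvPAs. The podocyte transcription factors of the list were not called, with values in C57BL6J and 129S2SvPAs of -1.39 and -0.41 for Tcf21 (limma adjusted p = 0.0920 and 0.581), -0.96 and -0.62 for Wt1 (0.186 and 0.314) and -0.37 and -0.18 for Lmx1b (0.595 and 0.774). The list's medians were 0.30 and 0.16.

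Markers of the cells in the preparation moved in the same comparisons. Over all genes tested, 4.78% were called higher after serum in C57BL6J and 10.6% in 129S2SvPAs. The share called lower after serum was not counted. Of 17 podocyte markers, 1 was called higher and 2 lower in C57BL6J, and 3 higher and 3 lower in 129S2SvPAs: Nes rose by 1.57 and 2.64, Ddn fell (-2.50 and -3.67), and values were -1.84 and -0.89 for Thsd7a and 0.39 and 1.18 for Podxl. Between controls, 11 of 17 podocyte markers were called lower in 129S2SvPAs, against 5.11% of all genes. The mean centred level of the list ranged from 0.50 to 1.12 over C57BL6J control arrays and from -0.83 to -0.17 over 129S2SvPAs control arrays. After serum it ranged from 0.00 to 0.90 in C57BL6J and from -0.96 to -0.58 in 129S2SvPAs. Between challenged mice 7 of 17 were called lower in 129S2SvPAs, against 4.89% of all genes. Other cell types differed between controls too. Called lower in 129S2SvPAs were 3 of 15 endothelial markers (median -1.04) and 3 of 11 mesangial and smooth muscle markers (median -0.24), with none higher. These levels and counts stand beside the strain differences of Col4a3, Col4a4, Lamc1 and Nid1, and their part in those differences was not tested.

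Of 11 mesangial and smooth muscle markers, 3 were called higher in C57BL6J and 5 in 129S2SvPAs, with Tagln at 5.29 and 5.70, Acta2 at 1.64 and 2.33, Des at 1.50 and 1.81 and Rgs5 at 0.14 and 0.93. The level of this list ranged from -0.59 to -0.03 in C57BL6J controls and 0.51 to 0.81 after serum, and from -0.87 to -0.61 and 0.25 to 0.52 in 129S2SvPAs. Of 15 endothelial markers, 2 were called higher and 1 lower in C57BL6J, and 8 higher and 1 lower in 129S2SvPAs: Nos3 rose by 2.86 and 3.73 and Robo4 by 1.09 and 2.45, Ehd3 fell (-1.94 and -2.56), and Pecam1 gave 1.41 and 2.67. The endothelial level ranged from -0.19 to 0.46 in C57BL6J controls and 0.27 to 0.95 after serum, and from -1.49 to -0.27 and -0.02 to 0.29 in 129S2SvPAs. Of 9 parietal epithelial markers, 2 and 3 were called higher, led by Akap12 (3.14 and 4.04) and Cd44 (1.26 and 2.53). Of 10 leukocyte and platelet markers, 3 and 2 were called higher, with the platelet genes Pf4 at 4.31 and 4.86 and Ppbp at 4.77 and 2.24. Over the groups, means were 6.51 to 7.99 for Csf1r, a receptor of macrophages, and 5.09 to 7.06 for Ptprc, the pan-leukocyte antigen. They were 3.06 to 3.34 for the macrophage marker Adgre1, near the median of 3.03 over all values. Between challenged mice 4 of these 10 markers were called lower in 129S2SvPAs, against 4.89% of all genes, among them Csf1r (-1.49; limma adjusted p = 0.0207) and Ptprc (-1.97; 0.00537). The part of these cells in the differences of the 10 genes was not tested.

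Tubular RNA differed between groups. The counts of markers called lower after serum have no share of all genes beside them, since that share was not counted. Of 20 proximal tubule markers, 2 were lower in C57BL6J and 8 in 129S2SvPAs after serum, none was higher, and their mean centred level ranged from 0.10 to 0.37 in C57BL6J controls and -0.23 to 0.13 after serum, and from 0.21 to 0.39 and -0.50 to -0.35 in 129S2SvPAs. Ttc36 (-1.05 and -1.74) and Cyp2e1 (-1.14 and -2.69) fell in both strains. Of 12 markers of later tubule segments, 1 was lower in C57BL6J, and 5 were lower and 2 higher in 129S2SvPAs. With the proximal tubule level as a covariate, the 129S2SvPAs differences were 2.62 for Col4a1 (SE 0.70; limma adjusted p = 0.195), 3.17 for Col4a2 (SE 0.72; 0.148), 2.87 for Lamc1 (SE 0.47; 0.0738) and 2.26 for Nid1 (SE 0.85; 0.320). Lama5 went from 0.52 to 1.21, Lamb2 from 0.75 to 1.23 and Col4a5 from 0.28 to -0.49. The errors grew, and none of the 10 genes was called by limma in this strain (5 had an unadjusted p under 0.05). The tubule levels of its controls and challenged mice did not overlap, as given above. In C57BL6J the same 4 genes were called with the covariate (Col4a1 2.27, Col4a2 2.23, Lama5 1.38, Lamc1 2.09). In the average 2 were called (Col4a2 2.70, Lamc1 2.48), and Col4a1 at 2.44 was not (limma adjusted p = 0.0532).

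The genes with the profiles most like those of Col4a1, Lamc1 and Col4a3 were found by the root mean square difference of centred log2 values over the 12 arrays, among 9262 genes that varied, as a description. For Col4a1, outside the 10 genes, these were Flna (0.26), Myadm (0.29), Fosl2 (0.31), Cald1 (0.32) and Nupr1 (0.33). For Lamc1 they were Ehd2 (0.23), F2r (0.29), Cd34 (0.30), Ltbp1 (0.31) and Fabp4 (0.32), and for Col4a3 they were Mylk (0.24), Fcgr2b (0.27), Cenpc1 (0.27), D830012I24Rik (0.29) and Rps4l (0.29). Within the 10 genes, Col4a3 and Col4a4 differed by 0.32 and Col4a4 and Col4a5 by 0.33, against 1.15 between Col4a1 and Col4a3.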

How the data were processed

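Per the labels' protocols, biotin-labelled RNA of isolated glomeruli was hybridised to Affymetrix arrays, 1 per mouse. The authors deposited log2 probe set signals with 2 decimals, from 1.12 to 15.02, with array medians of 2.99 to 3.06. The scale is judged from the numbers themselves. The submitters' processing notes name MAS5 and GCRMA without saying which of them made the table, and no version or scan date is given in the sources used here. Of 45037 probe sets, 34957 had 1 gene symbol, 920 several and 9160 none. Genes above 3.03, the median of all values, on at least 3 arrays were tested.

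Group means over the 12 arrays were fitted together in R 4.3.3 with limma 3.58.1, with empirical Bayes moderation (10.7 total degrees of freedom) and Benjamini-Hochberg adjustment within each of 6 contrasts. The fit was tested on simulated data. Figures used matplotlib 3.10.9. Named were all 10 genes, up to 4 genes per list with the lowest averaged p, and the 5 genes most like Col4a1, Lamc1 and Col4a3, among genes with an SD of at least 0.2, beside the genes that the text says were chosen after their values were seen. The genes and lists were chosen with earlier results of these data known. Same-numbered arrays deviated together, every correlation being over 0.1, between C57BL6J control and anti-GBM GN (0.208 to 0.330) and between the control groups (0.239 to 0.284), so the numbers were treated as pairs there, from the data and the labels' numbering. This did not hold for 129S2SvPAs control and anti-GBM GN (-0.157 to 0.183). Alternatives were quantile normalization, a shift to one median, no filter, a filter at 6.06, the mean of all probe sets, a trended and robust prior, array weights, only the groups compared, the replicate block, the proximal tubule covariate and leaving out each array.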

Additional observations from a re-analysis of the deposited data

How the results depend on the processing

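Counts of called genes among the 10 depended on the processing as follows. The share of all genes called was counted for the main fit alone, so the counts under other settings have no such share beside them. The C57BL6J response went from 4 to 8 with the replicate block on only the groups compared, a fit added after seeing the data, and to 6 with the replicate block on all arrays, quantile normalization, the stricter filter, the mean of all probe sets and array weights, each time with Col4a5 and Nid1 added. The 129S2SvPAs response was 5 with the stricter filter, the mean of all probe sets and array weights. The block on all arrays gave 5 in 129S2SvPAs, 7 in the average, 0 for the difference of responses (2 unadjusted in limma), and for the strain differences 3 in controls and 2 in challenged mice. With the proximal tubule covariate the 129S2SvPAs response went from 4 to 0 (5 unadjusted in limma) and the average from 7 to 2. The strain difference in controls went from 2 to 1 under quantile normalization, no filter, the mean of all probe sets, only the groups compared and the covariate, and to 3 with array weights. That in challenged mice went from 3 to 0 without the filter (5 unadjusted in limma), 5 with array weights, 1 with only the groups compared and 0 with the covariate (2 unadjusted). Leaving out each array gave 4 to 6 in C57BL6J, 4 to 5 in 129S2SvPAs, 6 to 9 in the average, 0 for the difference of responses (1 to 5 unadjusted in limma), and 1 to 4 in controls and 0 to 3 in challenged mice for the strain differences.

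Of 1380 values of single genes under alternatives, 1226 kept direction and side of the threshold, 42 passed it newly, 75 lost it and 37 changed sign, none of these past the threshold in that fit. With the covariate, Col4a4 in 129S2SvPAs was 0.088, Col4a5 -0.49, and between challenged mice Col4a2 was 0.029 and Lamb1 0.092. Other probe sets gave Col4a4 0.11 in 129S2SvPAs and 0.02 for the difference of responses, Col4a1 0.01 between challenged mice, Lama5 0.037 for the difference and -0.38 between controls, Lamb1 -0.057, -0.13, -0.095 and -0.077 in C57BL6J, 129S2SvPAs, the average and the difference, and Lamc1 and Nid1 both -0.72 for the difference. Lamb1 was -0.065 in 129S2SvPAs with array weights, and its difference of responses was -0.032 under quantile normalization, -0.0092 with the mean of all probe sets and -0.16 with array weights. Lama5 between controls was -0.086 with the mean of all probe sets.

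Leaving out each array spanned 0 for these values: Lamb1 in C57BL6J (-0.043 to 0.26) and 129S2SvPAs (-0.068 to 0.20), Col4a4 in 129S2SvPAs (-0.35 to 0.19), the differences of responses of Col4a3 (-0.43 to 0.18), Lamb1 (-0.17 to 0.14) and Lamb2 (-0.077 to 0.39), Lama5 between controls (-0.06 to 0.18), and between challenged mice Col4a2 (-0.26 to 0.055), Lamb1 (-0.27 to 0.037) and Nid1 (-0.32 to 0.18). Beyond what the construction of each setting shows, the cause was not tested.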
